A study of Homo sapiens with 18 samples.

Results

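mRNA was compared between NRF2-edited and control ARPE-19 cells that had both received N-acetylcysteine ethyl ester (NACET), in 3 libraries of each line, which are 6 of the 18 libraries of the series. ARPE-19 is a spontaneously arising human retinal pigment epithelium line, and NACET is a cell-permeable cysteine donor. The edited cells, also called NRF2 ΔC, were transduced with lentiviral particles that express Cas9 and a guide RNA against exon 5 of NFE2L2, the gene of NRF2, and their edited alleles carry a stop codon at positions 503 and 505. The control cells received particles that lack the guide. Both lines were treated with 1 mM NACET, for 8 h after 40 h of culture in 10 % serum per the series description, whereas the sample protocols give 2 h after 22 h in 1 % serum. The remaining libraries hold both lines untreated and after 0.2 mM H2O2, with 3 libraries in each group. The edited line is a single clone, C1, which the study picked by Western blot, so an effect of the edit cannot be told apart from any other property of that clone. Nothing states that the replicates came from separate cultures, so p-values measure the spread between these libraries, which may be technical. The comparison asks which transcripts differ between clone C1 and the control line once the cells have received NACET.

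NRF2 is a transcription factor that KEAP1, an adaptor of a ubiquitin ligase, keeps at a low level by marking it for degradation. When cysteines of KEAP1 are modified by electrophiles or oxidants, NRF2 accumulates, pairs with a small MAF protein through its basic leucine zipper and binds antioxidant response elements beside genes for glutathione synthesis, thioredoxin recycling, quinone reduction, heme breakdown, iron storage and NADPH supply. In the retinal pigment epithelium, which faces light and high oxygen, this pathway is studied as a defence against oxidative damage.

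The 6 libraries held 18224332 to 24083863 reads on genes, and normalised read counts are given as CPM, reads per 1000000 reads on genes. NFE2L2 mRNA itself was 106, 111 and 106 CPM in the control libraries and 110, 120 and 102 CPM in the edited ones. The groups overlapped, with a log2 fold change of 0.03 ± 0.10 (SE, n = 3 per line) and an adjusted p of 0.9 (edgeR quasi-likelihood test). A count over the whole gene does not see a small edit, so this level does not check the labels. KEAP1 was 78.2, 91.6 and 101 CPM in control cells and 70.2, 82.6 and 92.8 CPM in edited cells, and it was not called (log2 fold change -0.15 ± 0.13). Of 22 markers of retinal pigment epithelium, 11 were at or above 1 CPM in all 6 libraries, among them LRAT, RDH5, TYRP1, PMEL, MITF and OTX2. Another 10 were under 1 CPM in all 6, including the defining genes RPE65, RLBP1, BEST1, TYR and DCT, and CLDN19 had no read. The summed level of the 8 leukocyte markers was at most 0.548 CPM in any of the 6 libraries, and that of the 8 endothelial markers at most 2.60 CPM, with PECAM1, CDH5 and VWF under 1 CPM throughout. Of 8 fibroblast and mesenchymal markers, PDGFRB, FAP, S100A4 and VIM were at or above 1 CPM in all 6 libraries and DPT had no read, and the summed level was 4777 to 6817 CPM in control and 5827 to 6922 CPM in edited cells. The 10 photoreceptor and neuron markers summed to 22.0 to 29.7 CPM in control and 11.1 to 16.2 CPM in edited cells, which did not overlap. CRX and GNAT1 had no read, SYT1 was at or above 1 CPM in all 6 libraries (-0.70, not called), and PDE6B was the 1 of 4 tested that was called lower. The part of these markers in the results below was not tested.

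Under NACET, 648 of 13627 tested genes were called different between the lines, at an adjusted p below 0.05 and a change of 0.6 or more, up or down, on the log2 scale. Of these, 526 were lower in edited cells (3.86 % of the tested genes) and 122 were higher (0.895 %). The median log2 fold change of all tested genes was -0.002. The count of calls depended on single libraries. It was 320 without replicate 2 of the edited cells, 393 without replicate 2 of the control cells and 917 without replicate 1 of the edited cells. Replicate 1 of the edited cells lay further from replicates 2 and 3 (chi-square of the counts per degree of freedom of 42.6 and 62.7) than these lay from each other (12.3), and among the control replicates the same measure ran from 14.0 to 56.9. In the untreated cells 428 genes were lower (3.12 %) and 100 higher (0.729 %), and under H2O2 571 were lower (4.2 %) and 192 higher (1.41 %).

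Of the 142 genes of 9 lists that make up the NRF2 pathway, 125 were tested under NACET and 41 were lower in edited cells, which is 32.8 % against the 3.86 % of all tested genes. No member was called higher with edgeR or with DESeq2, against 122 of 13627 and 186 of 18257 genes in all. At an unadjusted p below 0.05, 4 members were higher, and 2541 of all 13627 genes passed in either direction. The median log2 fold change over the 125 members was -0.22. The other 84 members lay between -1.04 and 0.49 and were not called. The fall was called in every fit that left out 1 library for 31 of the 41.

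**Figure D1:**
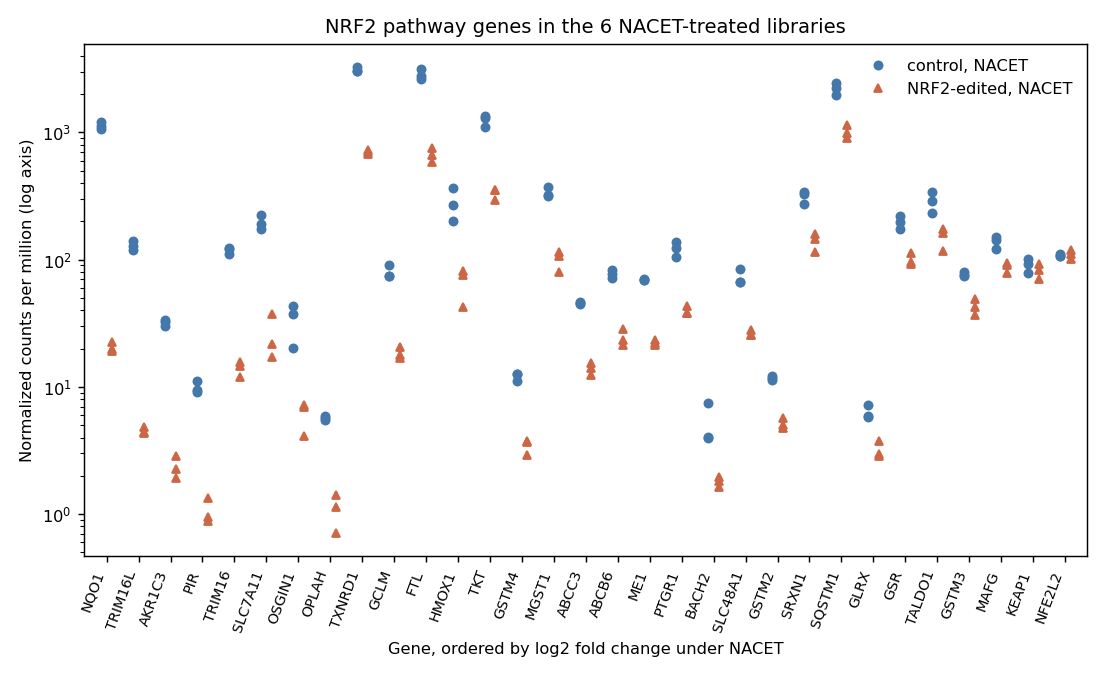
Normalised CPM (log axis) of 31 genes, the NRF2 pathway genes described below with NFE2L2 and KEAP1, in each of the 3 control (circles) and 3 NRF2-edited (triangles) libraries treated with NACET, ordered from the lowest log2 fold change on the left. The other 29 genes were chosen because they were called lower, so their circles lie above their triangles by that choice, while the lines overlap for KEAP1 and NFE2L2 at the right end.

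Enzymes that reduce quinones, carbonyls and epoxides were the list with the highest share of falls, 10 of 15 tested, with a median log2 fold change of -0.84. NQO1, which reduces quinones to hydroquinones, lies on chromosome 16 at 69740899 to 69760571 (GRCh37) and had 1060, 1215 and 1118 CPM in control cells against 20.0, 19.1 and 22.6 CPM in edited cells. The control mean was 55.0 times the edited mean (log2 fold change -5.79 ± 0.14, adjusted p = 1.7e-06). AKR1C3, an aldo-keto reductase that acts on prostaglandins and steroids, had 32.5, 30.1 and 33.7 CPM in control cells and 2.88, 1.92 and 2.28 CPM in edited cells (-3.76 ± 0.17, adjusted p = 2.8e-05). PIR, an iron-binding nuclear protein, had 9.08, 11.0 and 9.53 CPM against 1.33, 0.877 and 0.958 CPM (-3.21 ± 0.21, adjusted p = 0.00016). PTGR1, which inactivates leukotriene B4 and reduces alkenals, had 104, 123 and 138 CPM against 38.4, 38.0 and 43.4 CPM (-1.61 ± 0.12, adjusted p = 0.00034). Lower values were also called for the carbonyl reductase CBR1 (-1.30), the epoxide hydrolases EPHX1 (-1.13) and EPHX2 (-0.84), the aldehyde dehydrogenase ALDH3A2 (-0.99), the aldose reductase AKR1B1 (-0.80) and the reductase PTGR2 (-0.60). The quinone reductase NQO2 (-0.53) and the carbonyl reductase CBR3 (-0.55) were not called.

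Among genes of cystine uptake and glutathione, 5 of 15 tested fell, and the median of the list was -0.05. SLC7A11, the cystine transporter subunit, had 190, 224 and 174 CPM in control cells and 21.8, 37.5 and 17.2 CPM in edited cells, a 7.70-fold lower mean in the edited line (-2.95 ± 0.28, adjusted p = 0.00092). GCLM, the modifier subunit of the enzyme that starts glutathione synthesis, had 74.7, 90.9 and 74.2 CPM against 17.8, 16.8 and 20.4 CPM (-2.13 ± 0.13, adjusted p = 9.4e-05). GCLC, the catalytic subunit of the same enzyme, had 55.3, 52.8 and 53.5 CPM against 32.6, 34.4 and 33.6 CPM (-0.69 ± 0.09, adjusted p = 0.004). GSR, which regenerates reduced glutathione, had 175, 198 and 221 CPM against 91.7, 96.5 and 112 CPM (-0.99 ± 0.12, adjusted p = 0.0027). OPLAH, which opens 5-oxoproline to glutamate in the glutathione cycle, had 5.50, 5.86 and 5.64 CPM against 1.42, 0.712 and 1.14 CPM (-2.35 ± 0.25, adjusted p = 0.0016). The partner of SLC7A11 at the membrane, SLC3A2 (0.01), the glutathione synthetase GSS (-0.05) and the peroxidases GPX1 (-0.03) and GPX4 (0.14) were not called.

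Of 17 thioredoxin and peroxiredoxin genes 5 fell, and the median of the list was -0.16. TXNRD1, the cytosolic thioredoxin reductase, had 3016, 3247 and 3024 CPM in control cells and 676, 706 and 732 CPM in edited cells (-2.14 ± 0.11, adjusted p = 4.8e-05). OSGIN1, an oxidative stress-induced growth inhibitor, had 20.3, 37.3 and 43.3 CPM against 4.08, 6.90 and 7.25 CPM (-2.48 ± 0.32, adjusted p = 0.0034). SRXN1, which restores over-oxidised peroxiredoxins, had 275, 329 and 343 CPM against 115, 146 and 160 CPM (-1.18 ± 0.14, adjusted p = 0.0027). GLRX (-0.99) and PRDX1 (-0.72) were also called, but both calls were lost in most fits that left out 1 library (called in 2 and 1 of 6 fits, adjusted p up to 0.11 and 0.21). TXN, the thioredoxin that TXNRD1 reduces, had 156, 201 and 232 CPM in control cells against 97.9, 129 and 145 CPM and was not called (-0.67 ± 0.18, adjusted p = 0.08). The mitochondrial TXN2 (0.02) and TXNRD2 (0.05) were not called either.

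Heme and iron genes fell in 7 of 19 cases, with a list median of -0.34. FTL, the ferritin light chain that stores iron, had 2642, 2783 and 3172 CPM in control cells and 589, 659 and 754 CPM in edited cells (-2.11 ± 0.14, adjusted p = 0.00016). FTH1, the ferritin heavy chain, fell with it (-1.46 ± 0.19, adjusted p = 0.0038). HMOX1, the inducible heme oxygenase, had 201, 269 and 362 CPM against 42.0, 80.8 and 75.0 CPM (-2.08 ± 0.28, adjusted p = 0.0047). Its control libraries spread from 201 to 362 CPM, and the lowest of them still stood above the highest edited library. ABCB6, a porphyrin transporter, had 77.1, 82.4 and 72.2 CPM against 28.5, 21.3 and 23.3 CPM (-1.67 ± 0.14, adjusted p = 0.00054). SLC48A1, which carries heme out of lysosomes, had 66.1, 66.8 and 84.9 CPM against 25.3, 27.9 and 25.8 CPM (-1.47 ± 0.13, adjusted p = 0.00059). The constitutive heme oxygenase HMOX2 (0.34) and the biliverdin reductases BLVRA (-0.07) and BLVRB (-0.41) were not called.

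For NADPH supply, 4 of 15 genes fell, with a list median of -0.17. TKT, the transketolase of the pentose phosphate pathway, had 1107, 1290 and 1350 CPM in control cells and 295, 352 and 350 CPM in edited cells (-1.92 ± 0.13, adjusted p = 0.00016). ME1, the cytosolic malic enzyme, had 70.9, 69.5 and 69.1 CPM against 22.1, 23.3 and 21.5 CPM (-1.65 ± 0.10, adjusted p = 7.5e-05). The transaldolase TALDO1 was called at -0.94 ± 0.18 and lost the call without control replicate 2 or 3 or edited replicate 2 (adjusted p up to 0.11, log2 fold change -1.05 to -0.78). ABCC3, which exports glutathione and glucuronide conjugates, was the only exporter called of 5, with 44.9, 46.4 and 45.5 CPM against 15.3, 14.0 and 12.4 CPM (-1.71 ± 0.12, adjusted p = 0.00018). Glutathione transferases fell in 4 of 15 cases, led by GSTM4 (-1.82 ± 0.16) and the membrane-bound MGST1 (-1.76 ± 0.15), followed by GSTM2 (-1.20) and GSTM3 (-0.84, not called without control replicate 2, with an adjusted p of 0.0501). The GSTM genes are close copies of each other, so reads may be split between them. GSTP1, the transferase with a broad tissue range, stayed at -0.01 and was not called.

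Selective autophagy genes fell in 3 of 11 cases, with a list median of -0.53. TRIM16L had 119, 141 and 127 CPM in control cells and 4.42, 4.82 and 4.38 CPM in edited cells, a 28.4-fold lower mean (-4.83 ± 0.12, adjusted p = 1.7e-06). Its near-identical copy TRIM16, a ubiquitin ligase of the tripartite motif family, had 120, 124 and 111 CPM against 15.8, 14.6 and 12.0 CPM (-3.07 ± 0.14, adjusted p = 2.8e-05), and how reads divided between both copies is uncertain. SQSTM1, the cargo receptor p62 that also binds KEAP1, had 1960, 2248 and 2437 CPM against 907, 1146 and 996 CPM (-1.13 ± 0.14, adjusted p = 0.0028). Among the partners of NRF2, 2 of 13 fell. BACH2, a repressor that competes for the same elements, was at -1.52 ± 0.30 and lost its call without edited replicate 2 or 3 (adjusted p up to 0.11, log2 fold change -1.68 to -1.14). MAFG, a small MAF partner, was at -0.66 ± 0.11 and was called in 2 of 6 fits that left out 1 library. MAFF (0.41), MAFK (0.22), BACH1 (-0.10), CUL3 (0.07) and NFE2L1 (0.14) were not called.

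Promoters were searched for the core of the antioxidant response element, written TGACNNNGC, on both strands from 250 bases before to 50 bases after the gene start (RefSeq, GRCh38.p14). Of the members named here that fell, 31 had a promoter in the table and 7 of these (22.6 %) held a core. The core was in 12 of 71 promoters (16.9 %) of members that were not called and in 15.1 % of the promoters of all tested genes. The difference between these shares was not tested. The 5 members with a core that fell most were chosen by that fall, so their shared direction follows from the choice. Their windows are printed in 5′ to 3′ direction of the strand that carries the core, with the core in capitals.
PIR: tagcctcaccgTGACTCAGCgcttcgcggc
TXNRD1 distal: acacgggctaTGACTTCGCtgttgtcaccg
TXNRD1 proximal: cctgtgggaacTGACGGAGCcgaaggacgc
GCLM: ctggaagacaaTGACTAAGCagaaatcgta
ABCB6: cctgggcacgTGACCAAGCcggctctgctt
ME1 distal: tctcctgccaTGACTCAGCgcttctcgcag
ME1 proximal: tgctgctggggTGACGGTGCtgactgcagc
The windows lie at chrX:15493288-15493317 (minus-strand gene, core on the opposite strand), chr12:104215670-104215699 and chr12:104215761-104215790 (plus-strand gene, the proximal core on the opposite strand), chr1:93909445-93909474 (minus-strand gene, core on the opposite strand), chr2:219219091-219219120 (minus-strand gene, core on the same strand), and chr6:83431169-83431198 and chr6:83431021-83431050 (minus-strand gene, the proximal core on the opposite strand). PIR and the distal window of ME1 share the same 9 core letters. CBR1 and FECH were the other members with a core. A match of letters is a description of the sequence and not a binding site, and elements outside the 300 bases were not searched.

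The difference between the lines was then set beside that in untreated cells and under H2O2, which used other libraries of the same lines. Of the 648 genes called under NACET, 400 were also called untreated, which is 61.7 % of the former and 75.8 % of the 528 genes of the latter, and all 400 had the same sign. With H2O2, 434 genes were shared, 67.0 % of the NACET calls and 56.9 % of the H2O2 calls, again all of the same sign. Not being called untreated did not mean that the lines were alike there. Of the 248 NACET calls not called untreated, 233 were tested there, 230 with the same sign and 173 with an unadjusted p below 0.05. Of all genes tested untreated, 1879 of 13710 passed that limit. The interaction test described below called 3 of the 248, and 43 with its replicate block within each line. Over all 14002 genes that test called 9, and 126 with the block. For the pathway the counts were 19 of 125 lower untreated (15.2 %) and 29 of 128 lower under H2O2 (22.7 %). Among the 41 members that fell under NACET, 18 had also been called lower untreated, 27 under H2O2 and 17 in both. The 41 were chosen by their calls under NACET, which favours a larger fall there. Over all tested members the median log2 fold change was -0.22 under NACET, -0.14 untreated and -0.18 under H2O2. NQO1 was already at -4.03 in untreated cells, whereas HMOX1 was at -0.32, OSGIN1 at -0.24, GSR at -0.14 and SRXN1 at -0.02, none of these 4 called there. OPLAH (-2.39 untreated, -2.35 under NACET) and BACH2 (-1.47 and -1.52) differed about as much without NACET.

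**Figure D2:**
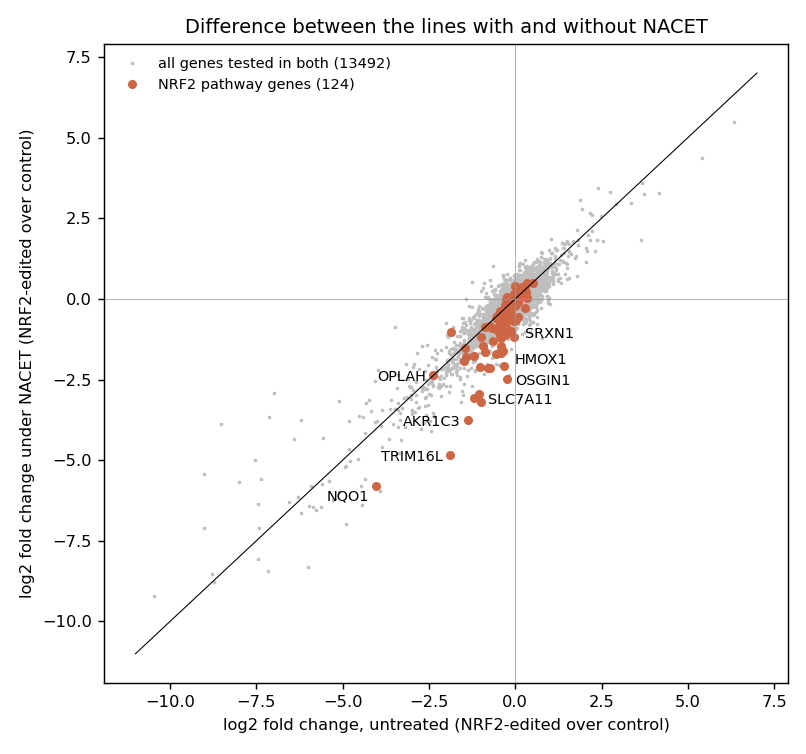
Log2 fold change of NRF2-edited over control cells, untreated on the x axis and under NACET on the y axis, for 13492 genes tested in both (grey) and 124 NRF2 pathway genes (orange), with the line of equality. 87 of the 124 pathway genes (70.2 %) lie below the line, against 53.9 % of all genes plotted, and NQO1, TRIM16L and AKR1C3 are its lowest labelled points.

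Whether the difference between the lines depended on NACET was tested as the interaction of cell line and treatment over 12 libraries. It called 9 of 14002 genes (0.0643 %), all with a more negative difference under NACET. The same-numbered libraries of a line moved alike, and when the replicate number entered the fit as a block inside each line the test called 126 genes, of which 107 had a more negative difference under NACET (0.764 %) and 19 a less negative or more positive one. Pathway genes made up 31 of the 107 and none of the 19. The count of 9 rested on nearly every library: it was 8 without control untreated replicate 2 and 2 to 4 without any 1 of the other 11. The count was 3 with RLE and 4 with upper-quartile normalization.

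TRIM16L and TXNRD1 were called in all 12 fits with 1 library left out. TRIM16L had a mean of 15.7 ± 5.46 CPM (SD, n = 3) in untreated control cells and 129 ± 10.9 CPM in NACET-treated ones, against 4.24 ± 0.397 and 4.54 ± 0.245 CPM in edited cells. The difference of the log2 fold changes was -2.95 ± 0.28 (adjusted p = 0.003, and 2.9e-07 with the block). TXNRD1 had 1013 ± 100.3 and 3096 ± 131 CPM in control cells, and 605 ± 47.2 and 705 ± 28.5 CPM in edited cells (-1.39 ± 0.14, adjusted p = 0.0038, and 1.9e-07 with the block). For both genes every NACET-treated control library stood above the untreated control mean, the lowest at 119 and 3016 CPM.

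The other 6 named genes held the call in 4 or fewer of these 12 fits, all with a negative difference in each. PTGR1 was called in 4 of them, AKR1C3, TRIM16 and SLC6A6 in 1 each, and FTL and SLC48A1 in none (adjusted p up to 0.23 for SLC48A1). SLC6A6, the taurine transporter, had 53.3 ± 10.8 CPM in untreated and 187 ± 22.8 CPM in NACET-treated control cells, against 48.6 ± 5.83 and 63.5 ± 4.74 CPM in edited cells (-1.43 ± 0.21, adjusted p = 0.046, and 3.7e-07 with the block). AKR1C3 had 10.5 ± 2.12 and 32.1 ± 1.86 CPM in control cells and 4.06 ± 1.54 and 2.36 ± 0.484 CPM in edited cells (-2.38 ± 0.35). FTL had means of 1380 ± 86.4 and 2866 ± 275 CPM in control cells and 686 ± 61.9 and 667 ± 82.6 CPM in edited cells (-1.10 ± 0.17).

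**Figure D3:**
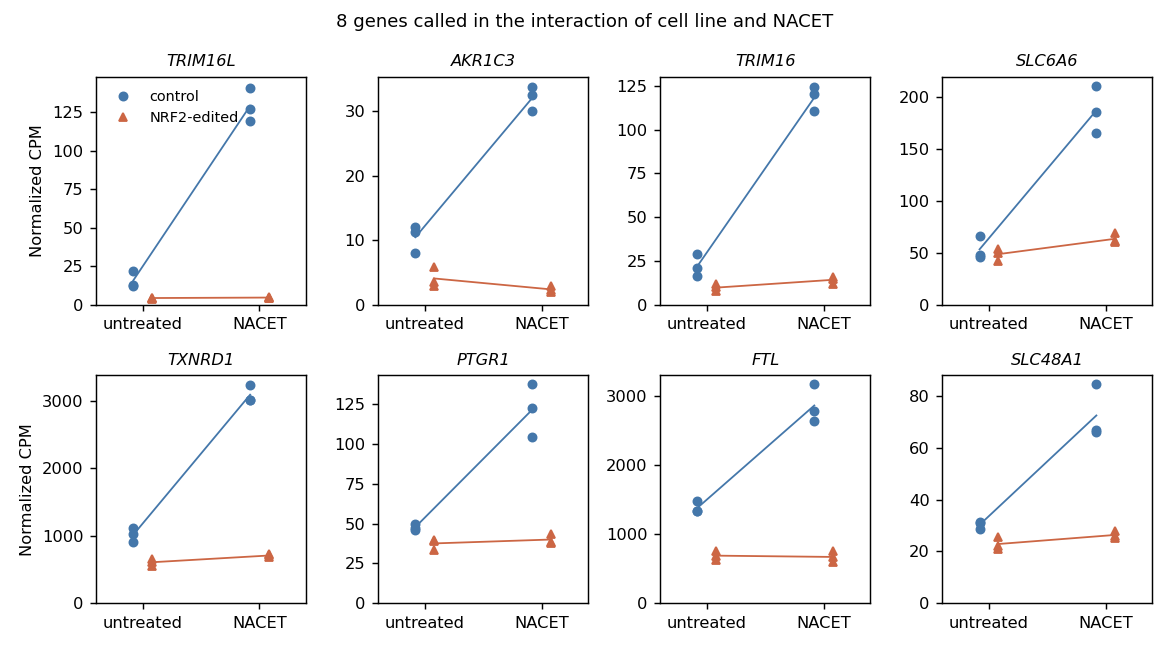
Normalised CPM of 8 of the 9 genes called in the interaction of cell line and NACET, untreated and under NACET, with each of 3 libraries as a point and lines joining the group means (control circles, NRF2-edited triangles). The control mean is higher with NACET in all 8 panels, and the edited means range from nearly level (TRIM16L, 4.24 and 4.54 CPM) to lower with NACET (AKR1C3, 4.06 and 2.36 CPM) or higher (TRIM16, 9.68 and 14.2 CPM).

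Several pathway genes with a large difference were not called in the interaction without the block but were with it. NQO1 differed by -1.75 ± 0.32 (adjusted p = 0.15, and 2.6e-05 with the block within each line). SLC7A11 had 30.8 ± 6.28 CPM in untreated and 196 ± 25.6 CPM in NACET-treated control cells, against 14.8 ± 3.60 and 25.5 ± 10.6 CPM in edited cells (-1.90 ± 0.37, adjusted p = 0.19, and 4.1e-06 with the block). HMOX1 (-1.76, adjusted p = 0.23, and 6.4e-07 with the block), OSGIN1 (-2.24, 0.35 and 7.1e-06) and GCLM (-1.34, 0.091 and 8.0e-06) behaved alike in this respect. GSTM4 (-0.39) and OPLAH (0.04) were called in neither fit.

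Beyond the pathway, 11 further lists were counted, to be read against the 3.86 % of all tested genes called lower and the 0.895 % called higher. None of 21 tested p53 targets, 33 cell division genes or 28 genes of cholesterol and fatty acid synthesis was called under NACET with edgeR, with list medians of 0.12, 0.22 and -0.30. At an unadjusted p below 0.05 there were 6, 1 and 3 genes, against 2541 of all 13627 tested genes. DESeq2 called 1, 0 and 0, against 820 of 18257 genes. Complement genes fell in 3 of 14 cases (21.4 %), and the median of the list was -0.31. The count was also 3 of 14 untreated and under H2O2, where 3.12 % and 4.2 % of all tested genes were lower. SERPING1, the inhibitor of the first complement component, had 6.91, 4.90 and 5.98 CPM against 0.250, 0.822 and 1.09 CPM (-3.06 ± 0.40, adjusted p = 0.004). It was about as low in untreated cells (-3.21), and its interaction with NACET was not called. The protease C1S was also lower (-1.16) but was called in only 2 of 6 fits that left out 1 library, and like the others below that the rule leaves out it was named after its value was seen. Interferon-stimulated genes fell in 4 of 22 cases (18.2 %), as many as untreated (4 of 22), with 3 of 22 under H2O2. The named members IFI44 (-1.49) and PSMB9 (-1.22), a subunit of the immunoproteasome, were each called in 1 of 6 fits that left out 1 library. The others were OAS1 (-3.44 ± 0.44), with 1.97, 1.72 and 1.59 CPM against 0.0417, 0.274 and 0.182 CPM, and OAS3 (-1.16 ± 0.19), both synthases of the messenger that activates RNase L.

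Genes responsive to YAP and TGF-beta moved in both directions, 4 of 19 higher (21.1 %) and 3 lower (15.8 %). Of the 19 tested untreated, 3 were higher and 3 lower, and under H2O2 4 were higher and 1 lower. TAGLN, an actin-binding protein of contractile cells, had 75.5, 59.8 and 18.2 CPM in control cells and 8.34, 6.19 and 4.88 CPM in edited cells (-2.98 ± 0.50, adjusted p = 0.013), and the call was lost without replicate 2 of either line (adjusted p up to 0.093, log2 fold change -3.37 to -2.58). CNN1, another protein of the contractile apparatus, was at -1.90 ± 0.31 and was called in 3 of 6 such fits. The cytokine TGFB1 was higher in edited cells, with 73.5, 97.0 and 93.7 CPM against 32.8, 29.9 and 45.7 CPM (1.28 ± 0.18, adjusted p = 0.0054). LTBP2, an extracellular matrix protein related to the binding proteins of latent TGF-beta, had 295, 383 and 367 CPM against 168, 139 and 131 CPM (1.25 ± 0.14, adjusted p = 0.0021). The remaining calls were TGFBI (0.90) and SMAD7 (0.77), both higher, and ANKRD1 (-1.45), a YAP target, lower. Of 15 cytokine and NF-kappaB responsive genes, the interleukin IL1B was higher, with 3.71, 4.77 and 4.29 CPM in edited and 0.756, 0.538 and 0.543 CPM in control cells (2.78 ± 0.24, adjusted p = 0.00062), and the adhesion molecule ICAM1 was lower, with 0, 0 and 0.182 CPM in edited and 1.56, 1.94 and 0.627 CPM in control cells (-4.33 ± 0.86, adjusted p = 0.026, called in 3 of 6 fits that left out 1 library).

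Hypoxia and glycolysis genes fell in 5 of 27 cases (18.5 %) under NACET. In untreated cells none was called lower with edgeR, 4 were lower at an unadjusted p below 0.05 and DESeq2 called 2. Of all 13710 genes tested untreated, 428 were called lower, and 1879 passed that unadjusted limit in either direction. DESeq2 called 546 of 18134 genes lower there. NDRG1, a hypoxia-induced gene of differentiation, had 225, 250 and 280 CPM in control cells and 124, 117 and 135 CPM in edited cells (-1.01 ± 0.11, adjusted p = 0.0019). ALDOC, the brain aldolase, was at -1.78 ± 0.35 under NACET and -1.67 untreated, and was called in 2 of 6 fits that left out 1 library under NACET. Neither gene was called in the interaction, with or without the block. The other 3 were PFKFB4, described further on, PDK1 (-0.86 ± 0.10), which holds back pyruvate oxidation, and the glucose transporter SLC2A3 (-0.81 ± 0.15). In the interaction with the block, 3 of the 27 list members, PFKFB4 among them, had a more negative difference under NACET, against 0.764 % of all tested genes. Of the heat shock list, only CRYAB, a small heat shock protein of the lens and retina, fell among 22 (-1.23 ± 0.21, adjusted p = 0.013, not called without edited replicate 2). The amino acid transporter SLC7A5 (-0.80) and the glycoprotein STC2 (-0.71) were the 2 of 25 genes of the amino acid stress list that fell, each called in 3 or fewer of 6 such fits. THBS2, a matrix glycoprotein, was the 1 of 23 collagen and matrix genes that fell (-1.11 ± 0.19, called in 4 of 6 such fits). The shares of the heat shock (4.55 %) and the collagen and matrix list (4.35 %) were near the 3.86 % of all tested genes and show nothing about these lists. MITF, a transcription factor of pigment cells, was the 1 of 12 tested pigment epithelium markers that fell (-0.74 ± 0.14, called in 2 of 6 such fits).

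**Figure D4:**
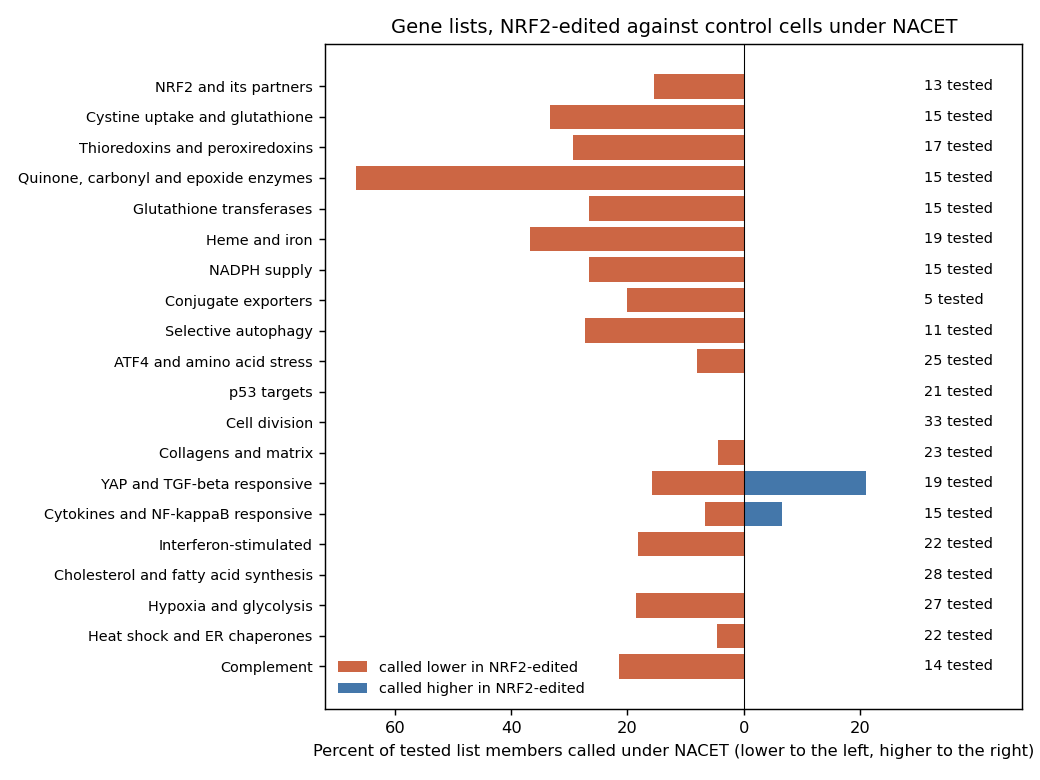
Percent of tested members of 20 gene lists that were called lower (left) or higher (right) in NRF2-edited cells under NACET, with the number tested beside each bar. The quinone, carbonyl and epoxide enzymes reach furthest to the left (10 of 15), and members called higher appear only in the YAP and TGF-beta and the cytokine lists.

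The genes furthest apart between the lines under NACET were not members of the pathway lists, and those of them that were tested in untreated cells were called there too. AJAP1, a protein of adherens junctions, had 271, 248 and 276 reads in control libraries and 0, 1 and 0 in edited ones. BHMT2, a methyltransferase of methionine synthesis, had 416, 310 and 391 reads against 2, 0 and 1, a ratio of 383 (95 % exact counting interval 131 to 1860). C5orf63, VANGL2, a planar cell polarity protein, IQCA1 and the zinc finger genes ZNF501 and ZNF788 had 1 to 6 reads over the 3 edited libraries and 181 to 566 over the control ones. LHFPL4, a synaptic membrane protein, and the zinc finger gene ZNF594 had no read in any edited library under NACET, against 37 to 80 and 42 to 49 reads per control library, which puts the control level at least 56.9-fold and 46.3-fold higher with a floor of 3 reads over the group. Over all genes, 29 had at least 1 CPM in each control library and at most 3 reads in each edited library, and none had the reverse. Among these 29 was PDE6B, a subunit of the rod phosphodiesterase, with 80, 76 and 126 reads against 1 in each edited library.

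LOC344887, the transcribed pseudogene NMRAL2P, was the exception among the 10 lowest genes in that its control level itself differed with NACET. Its mean was 0.343 ± 0.112 CPM in untreated and 7.39 ± 0.300 CPM in NACET-treated control cells (SD, n = 3), with 149, 131 and 182 reads in the latter. The edited libraries had 1, 0 and 0 reads under NACET and none untreated. It was too low to be tested between the lines without NACET, and the interaction had an SE of 6.29 and was not called.

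Genes higher in edited cells were led by MMP1, the interstitial collagenase, with 1.46, 4.93 and 7.52 CPM against 0.101, 0 and 0.167 CPM in control cells (5.50 ± 0.84, adjusted p = 0.0083). CNTN1, a neuronal adhesion protein, had 17.0, 11.2 and 11.6 CPM against 1.11, 0.538 and 0.293 CPM (4.38 ± 0.40, adjusted p = 0.0008). LAT, an adaptor of T cell receptor signalling, had 33.4, 43.1 and 49.3 CPM against 3.78, 3.60 and 4.05 CPM (3.44 ± 0.17, adjusted p = 4.0e-05), while of the leukocyte markers PTPRC and CD3E had no read in these 6 libraries. CLDN11, a tight junction protein, had 36.0, 52.4 and 47.2 CPM against 4.39, 3.93 and 5.69 CPM (3.26 ± 0.19, adjusted p = 8.7e-05). TRO (3.60), RPSAP52 (3.30), EPHB1 (3.07), C11orf41 (2.98) and RTN1 (2.94) completed the 10 highest genes together with IL1B. All but EPHB1, which lost its call without edited replicate 2 (adjusted p = 0.072), were called in every fit that left out 1 library. All 10 were also called higher in untreated edited cells (1.89 to 6.34).

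**Figure D5:**
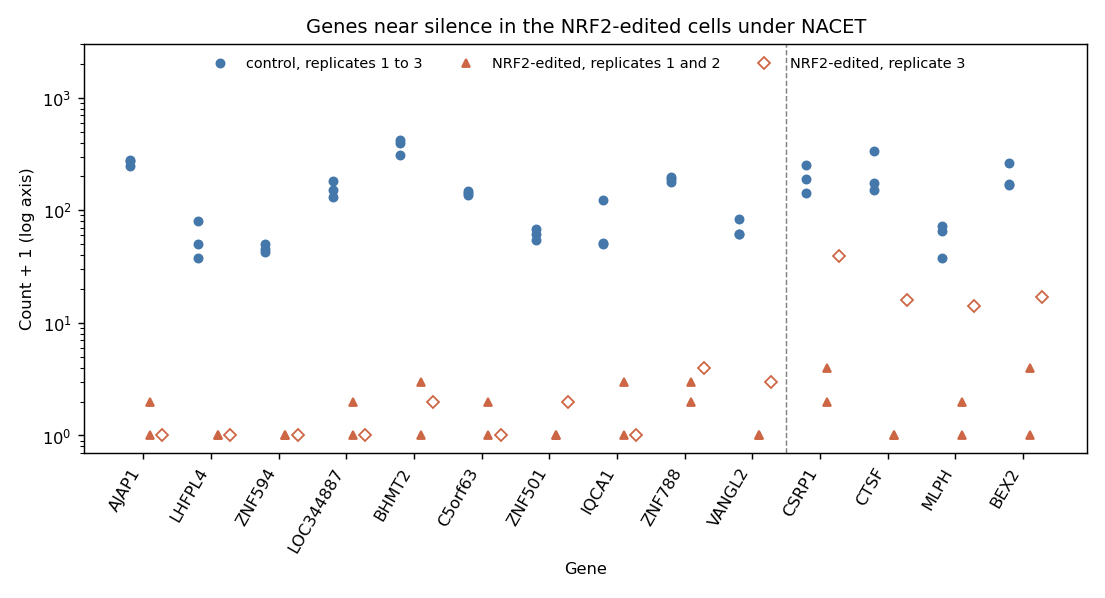
Counts plus 1 (log axis) in the 3 control (circles) and 3 NRF2-edited libraries under NACET, for the 10 lowest genes (left of the dashed line) and 4 genes chosen after their values were seen (right), with edited replicate 3 as an open diamond. The 10 genes on the left have at most 3 reads in each edited library, whereas replicate 3 stands at 13 to 38 reads for the 4 on the right.

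Replicate 3 of the edited cells stood apart from the other edited libraries in a set of genes that were otherwise near silence in that line, named here after their values were seen. CSRP1, an actin-associated protein, had 3, 1 and 38 reads in edited replicates 1, 2 and 3, against 142 to 251 in control libraries. The cathepsin CTSF had 0, 0 and 15 reads, MLPH 1, 0 and 13, and BEX2 3, 0 and 16. All 4 were called lower in edited cells under NACET, but CTSF was not called with DESeq2 (adjusted p = 0.054). AJAP1, LHFPL4 and ZNF594 had no read in that replicate. Without it, 467 genes were called under NACET and the log2 fold change of CSRP1 was -6.57 in place of -3.88. The source of these reads was not tested.

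A further group differed under NACET but by less than 0.2 on the log2 scale in untreated cells. SLC6A6, SRXN1 and GSR, described above, were the 3 lowest. PFKFB4, which sets the level of a glycolysis activator, had 66.9, 82.4 and 63.9 CPM in control cells and 41.2, 33.5 and 38.2 CPM in edited cells under NACET (-0.92 ± 0.14, adjusted p = 0.0074). Its interaction with NACET was -0.91 ± 0.42 (adjusted p = 1.0, and 0.039 with the block), and the call under NACET was lost without edited replicate 2 (adjusted p = 0.056). Only 3 genes were higher by this rule. HTR7, a serotonin receptor, had 5.46, 5.53 and 5.88 CPM in edited cells against 2.42, 2.58 and 2.88 CPM in control cells (1.09 ± 0.16, adjusted p = 0.0073), with 2.21 ± 0.479 and 2.06 ± 0.198 CPM in the untreated lines. Its interaction was 0.98 ± 0.26 and was not called (adjusted p = 0.98, and 0.082 with the block). FAM115C (-0.96), LOC646329 (1.00) and FAM89B (0.61) were called in 1, 2 and 2 of 6 fits that left out 1 library.

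The difference between the lines under NACET was last tested against that under H2O2. Only DEPDC1, a gene of mitotic cells, was called of 13915 genes, with a difference of 2.08 ± 0.24 (adjusted p = 0.019). It had 34.8, 44.9 and 41.2 CPM in control and 41.3, 59.8 and 52.9 CPM in edited cells under NACET, where the lines overlapped, and 36.1 ± 2.91 and 11.1 ± 2.05 CPM under H2O2. The call was lost without any 1 of the 6 control libraries, or without edited NACET replicate 2 or 3 (difference 1.96 to 2.16, adjusted p 0.055 to 0.11 in these 8 fits). With the replicate number as a block within each line, the test called 1163 genes, 774 of them with a less negative or more positive difference under NACET and 389 the opposite, and DESeq2 called 106. Of the 33 cell division genes, 18 were lower in edited cells under H2O2 (54.55 %, against 4.2 % of all tested genes) and none under NACET. Their medians were -1.09 and 0.22. In the difference from H2O2 none of the 33 was called without the block, and 20 passed an unadjusted p below 0.05, against 719 of the 13915 genes. The median of the list was 1.325 there, and 5 of the 33 were negative. No pathway gene was called by edgeR without the block, while 21 of 128 passed an unadjusted p below 0.05 and DESeq2 called 3. NQO1 was at -5.79 under NACET and -5.66 under H2O2, AKR1C3 at -3.76 and -3.68, SLC7A11 at -2.95 and -1.13, and HMOX1 at -2.08 and -1.16.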

How the data were processed

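The authors prepared poly(A) TruSeq libraries, sequenced single-end reads, mapped them to hg19 with TopHat 2.1.0 and counted reads per gene with HTSeq-count 0.11.2 without regard to strand. They removed rRNA genes and deposited whole-number counts per gene symbol, with no normalization. The gene annotation is not given in the sources used here. Without strand, overlapping and antisense genes cannot be told apart, and near-identical copies may share or lose reads. Summary lines that name no gene (15.3 to 17.0 % of reads on no feature, 0.985 to 1.13 % ambiguous and 8.24 to 10.1 % mapped to several places in the 6 NACET libraries) were left out.

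Groups came from the labels. Each comparison of lines was fitted to its own 6 libraries with edgeR 4.0.16 (R 4.3.3): filterByExpr, TMM, quasi-likelihood test, Benjamini-Hochberg adjustment over all genes tested. A gene was called below an adjusted p of 0.05 and at 0.6 or more, up or down, on the log2 scale. The study gives these limits, with an FPKM cut-off that was not applied here, for another series, and states no fold limit for these libraries. Interactions were called on the adjusted p alone. The SE is the size of the log2 fold change divided by the square root of F. CPM are TMM-scaled over 18 libraries. DESeq2 1.42.0 was an alternative. On data simulated for the NACET comparison, with 200 of 13520 genes changed, 178 were recovered and 11 unchanged genes were called. For the interaction with NACET, with 200 of 13880 genes changed, 148 were recovered and 5 unchanged genes were called. All planted changes exceeded the 0.6 limit, and each library was drawn independently. Deviations shared between libraries were therefore absent, and these counts do not measure recovery in the real libraries.

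Same-numbered untreated and NACET libraries of a line correlated in their deviations (r = 0.389 to 0.789 across 12848 genes), as did H2O2 and NACET libraries (0.481 to 0.787), so a block within each line, chosen after seeing the data, is printed beside interactions. Between lines under NACET, same-numbered libraries correlated for replicates 1 and 3 (r = 0.69 and 0.41) but not for replicate 2 (r = -0.299). The main fits used no block there because the labels do not say that a number links the lines. The fit with one is given below as an alternative.

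The gene lists and the comparison were chosen with earlier results of these data known. Genes were named by rule: NFE2L2 and KEAP1; up to 4 called members of each pathway list; up to 2 called per direction in other lists; the 10 lowest and 10 highest called genes at a mean of 1 CPM or more with no overlap; up to 10 called in the interaction; and up to 5 per direction within 0.2 of 0 untreated. Other pathway members are given as single values. XIST and Y-linked genes were left out, and some called genes and a sequence are not reported here.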

Additional observations from a re-analysis of the deposited data

Results flagged for a closer look

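In 9 genes the difference between the lines itself differed between NACET-treated and untreated cells by an interaction test, and 8 of them are named here. The difference of the log2 fold changes (NACET minus untreated) was -2.95 for TRIM16L, -2.38 for AKR1C3, -1.88 for TRIM16, -1.43 for SLC6A6, -1.39 for TXNRD1, -1.26 for PTGR1, -1.10 for FTL and -1.06 for SLC48A1. For DEPDC1 the difference between the lines under NACET differed from that under H2O2, by 2.08. Groups of 3 are too small for a test of single outlying libraries.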

How the results depend on the processing

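None of the 86 named or pathway genes called under NACET changed sign between the lines in any alternative. They were chosen by their calls, which favours a stable sign, and uncalled genes were not counted here. Of 86 named or pathway genes called, 1118 alternative values were computed, of which 1012 remained called and 106 did not. Only 11 of the 106 arose in alternatives that kept all libraries, and 25 arose without edited NACET replicate 2. Of 311 alternative list medians under NACET, 36 moved by more than the spread between replicates. The depth of 18224332 reads or more leaves genes under about 1 CPM with few reads. The replicate number was also entered as a block across both lines, where replicates 1 and 3 correlated under each treatment but replicate 2 did not. With this block, 1018 genes were called under NACET, 843 untreated and 1524 under H2O2, 38 in the interaction with NACET and 160 in the difference from H2O2. Within each line the block gave 126 and 1163 in the last 2. Leaving out 1 library gave 320 to 917 calls under NACET, 261 to 901 untreated, 400 to 2416 under H2O2, 2 to 8 in the interaction and 0 to 20 in the difference from H2O2. The interaction count was 28 with DESeq2, 3 with RLE and 4 with upper-quartile normalization. The difference from H2O2 was called in 106 genes with DESeq2, 6 without a filter on low counts and 2 in one fit of all 18 libraries. Fewer libraries entered the fits that left out 1, and otherwise the cause was not tested. The counts without a fold limit (739) and with a limit of 1 (462) were within 1.5 times of the 648 called under NACET.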

Other observations

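Placed by their symbols on GRCh37, 11833 tested genes fell on 22 autosomes and the X chromosome. The median log2 fold change between the lines under NACET lay between -0.04 and 0.10 for each of the 23 chromosomes, and the share of genes called ranged from 2.75 to 7.43 %. The 461 tested genes with a ZNF symbol, which encode zinc finger proteins, had 13 lower and 2 higher under NACET (2.82 and 0.434 %), with a median of 0.005, although 4 of the 29 genes near silence in edited cells carry that symbol.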
